A study of Mus musculus with 3 samples.

Results

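The 39 genes described here encode the machinery that burns fatty acids and the enzymes that supply acetyl-CoA from fatty acids or acetate. They were chosen by name, and each of the 39 was found in the deposited gene tables, 25 by gene symbol and 14 by Ensembl gene name, among 31510 genes in all. By role they are 8 genes of the carnitine shuttle, 7 acyl-CoA dehydrogenases, 5 genes of the hydration, dehydrogenation and thiolysis steps, 3 isomerase and reductase genes and 4 genes of peroxisomal oxidation. The remaining ones are 3 genes of electron transfer, 5 acyl-CoA synthetase and thioesterase genes, 2 acetyl-CoA synthetases and 2 transcriptional regulators.

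A long-chain fatty acid is first joined to coenzyme A by an acyl-CoA synthetase, then handed to carnitine by CPT1, carried through the inner mitochondrial membrane and handed back to coenzyme A by CPT2. Inside the matrix, a dehydrogenase, a hydratase, a second dehydrogenase and a thiolase cut off acetyl-CoA in repeated rounds, while electron transfer flavoprotein passes electrons to the respiratory chain. Peroxisomes run a related cycle on very long and branched chains. In the early embryo, fatty acid oxidation is one of the fuels of development, and it has been described as a fuel of embryos held in diapause.

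The samples were mouse blastocysts in delayed implantation, a state in which the embryo pauses in the uterus until estrogen returns. All mothers were CD-1 mice aged 2 months, without ovaries from day 4 of pregnancy and given 2 mg of progesterone each on days 5 to 7. Dormant blastocysts had no other hormone and were flushed from the uterus on day 8. The other mothers received estradiol (E2) on day 7, and their blastocysts were taken 6 h later (called reactivating) or 12 h later (called reactivated). The dormant blastocysts are thus a group without E2, not a sample taken before the E2 of the other mothers. Each state was 1 library from a pool of more than 3000 blastocysts, so there is no replicate error, no test and no p-value. State, time since E2, time of collection and handling of a pool cannot be told apart. Because whole blastocysts were pooled, fewer cells of a type and less RNA per cell cannot be told apart.

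Levels are RPKM, the exon reads of a gene per kilobase of exon scaled to the reads of the library, as the authors computed them. Each has an exact 95% Poisson interval from its reads, which covers counting error only. Exon reads numbered 9298675 in the dormant library, 10364607 at 6 h and 12941447 at 12 h, and values given in threes keep this order. For a gene with 1 kb of exon, 3 reads, taken as the floor for a count of 0, correspond to 0.212, 0.191 and 0.158 RPKM. One mitochondrial ribosomal RNA, mt-Rnr2, took 17.8%, 18.6% and 24.3% of the exon reads, and its part in the differences given here was not tested. All 12 blastocyst markers reached 1 RPKM, with a summed level of 1284, 1322 and 1045 RPKM. Of 10 immune cell markers 6 reached 1 RPKM in a library, with summed levels of 32.79, 23.41 and 44.28 RPKM, and Tyrobp was at 0 reads in the reactivated library. The higher sum at 12 h was that of S100a8 (4.21 RPKM in dormant and 16.61 in reactivated blastocysts) and S100a9 (5.43 and 20.39), while Laptm5 (13.74 and 4.11), Cd14 (2.97 and 0.54) and Cd68 (3.61 and 1.72) were lower there. Of 10 uterine epithelium markers 5 did so, with summed levels of 74.6, 78.04 and 33.42 RPKM, most of which was Lif and Wfdc2. Of 8 stromal markers 3 did so, at 19.91, 19.06 and 16.17 RPKM summed, most of which was Pdgfra (12.06, 12.72 and 10.06 RPKM). Col3a1 was lowest in the reactivated library (2.39, 1.73 and 0.71 RPKM), where Hand2 was at 0, while Vim was highest there (3.58, 2.55 and 4.89 RPKM). Of 6 red blood cell markers none reached 1 RPKM (0.66, 0.61 and 0.5 RPKM summed), and 3, 4 and 3 of them were at 0. The summed levels of the blastocyst, uterine epithelium, stroma and red blood cell markers were lowest in the reactivated library, as that of the members was, and their part in the members' differences was not tested.

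Some members are shown first by the DNA upstream of their start sites: Acss1, Slc22a5 and Cpt1a were the members with the greatest falls 12 h after E2 and Acsl5 was the single member with a rise past the size rule. Each run is the 250 bases before the RefSeq start, read in the direction of the gene, from build GRCm38.p6. The windows are chr2:150668241-150668490 (minus strand) for Acss1, chr11:53891704-53891953 (minus strand) for Slc22a5, chr19:3323051-3323300 (plus strand) for Cpt1a and chr19:55253119-55253368 (plus strand) for Acsl5. Capitals mark matches to the motifs searched, on either strand.
Acss1: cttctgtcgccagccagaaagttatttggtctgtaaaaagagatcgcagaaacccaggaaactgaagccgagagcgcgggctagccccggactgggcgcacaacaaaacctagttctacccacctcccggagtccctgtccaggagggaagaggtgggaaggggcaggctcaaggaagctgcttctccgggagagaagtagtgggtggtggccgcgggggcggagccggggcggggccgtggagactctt
Slc22a5: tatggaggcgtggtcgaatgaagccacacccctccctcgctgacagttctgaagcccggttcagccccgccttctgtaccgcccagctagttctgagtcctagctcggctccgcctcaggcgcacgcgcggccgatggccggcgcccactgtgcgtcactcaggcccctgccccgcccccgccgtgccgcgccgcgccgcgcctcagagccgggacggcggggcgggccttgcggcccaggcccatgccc
Cpt1a: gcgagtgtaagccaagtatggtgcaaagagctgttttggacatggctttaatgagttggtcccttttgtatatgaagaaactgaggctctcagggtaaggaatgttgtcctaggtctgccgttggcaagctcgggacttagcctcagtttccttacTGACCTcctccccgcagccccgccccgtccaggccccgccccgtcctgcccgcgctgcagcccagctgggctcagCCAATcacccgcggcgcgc
Acsl5: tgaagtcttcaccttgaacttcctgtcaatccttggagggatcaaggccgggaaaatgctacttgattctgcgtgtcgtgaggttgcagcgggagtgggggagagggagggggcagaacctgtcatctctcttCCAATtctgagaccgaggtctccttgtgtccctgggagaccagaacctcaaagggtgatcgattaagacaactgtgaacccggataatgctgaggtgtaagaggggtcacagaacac
In the Cpt1a window the capitals are TGACCT, the reverse complement of the nuclear receptor half-site AGGTCA, from 94 bases before the start, and a CCAAT box from 19 bases before it. The Acsl5 window holds 1 CCAAT box, from 117 bases before the start. None of the 7 motifs searched was found in the Acss1 and Slc22a5 windows, which says only that these letters are absent from these 250 bases. GC content of the windows was 61.6% for Acss1, 73.6% for Slc22a5, 59.6% for Cpt1a and 52.8% for Acsl5. In the GENCODE M21 annotation, 171 bases of the Acss1 window lie in exons of Acss1 transcripts or of the antisense gene E130215H24Rik. Of the Cpt1a window 16 bases lie in Cpt1a exons. The M21 genes Cpt1a and Acsl5 begin upstream of these windows, at 3322334 and 55251938 on chromosome 19, so both windows lie inside those genes.

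Taken as a set, the members were well above detection in all 3 states, little different 6 h after E2 and lower at 12 h. At least 1 RPKM was reached by 35 of the 39, the same number in each library, and at least 5 RPKM in some library by 29. Cpt1b, Cpt1c, Ppara and Ppargc1a stayed under 1 RPKM throughout. The median level of the 39 was 9.02 RPKM in dormant blastocysts, 9.26 at 6 h and 6.05 at 12 h. Their RPKM summed to 618.6, 729.9 and 449.1, and they took 0.209%, 0.238% and 0.137% of all exon reads.

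**Figure D1:**
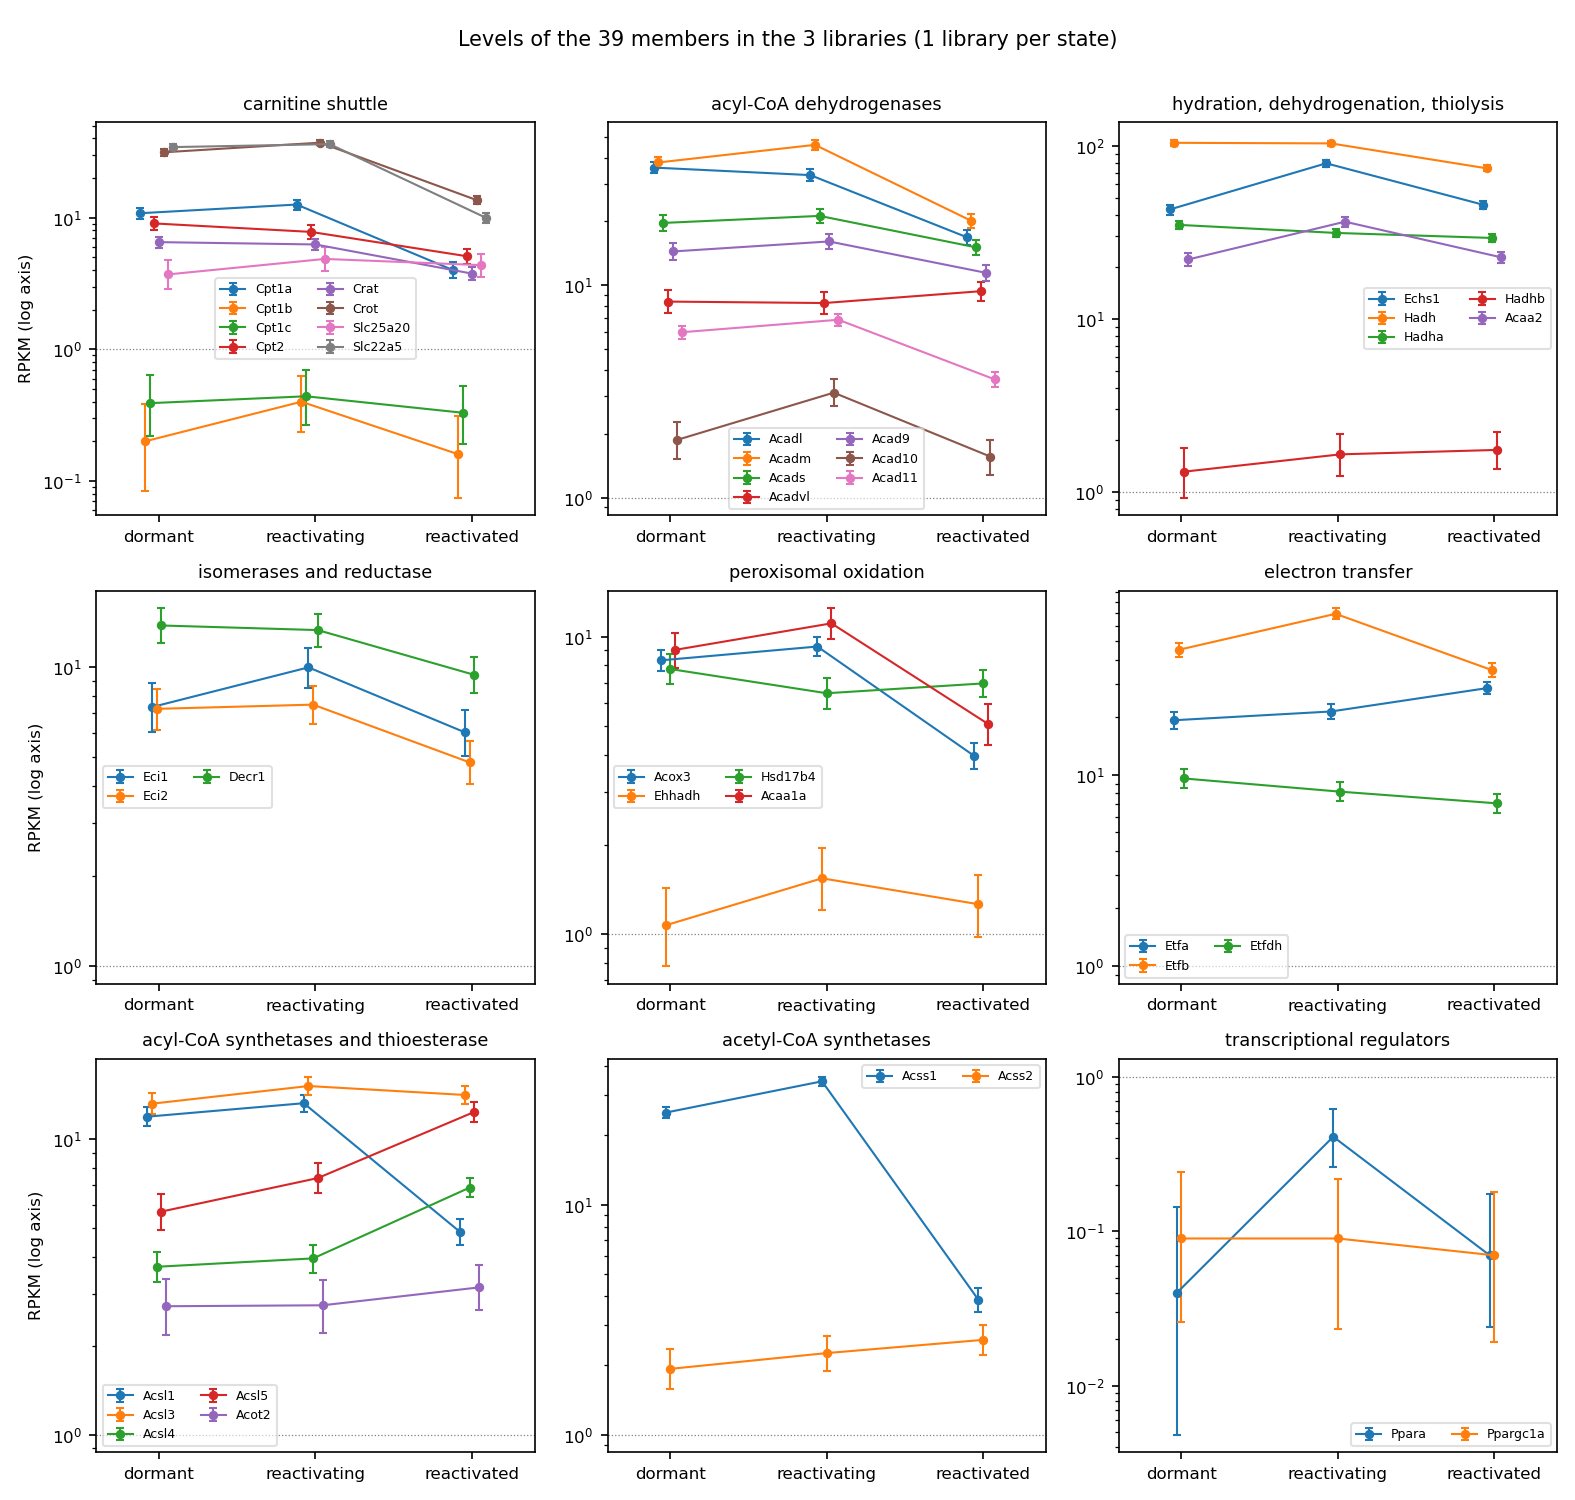
RPKM (log axis) of the 39 genes in the dormant, reactivating and reactivated libraries, 1 panel per role, with exact 95% Poisson intervals as bars and a dotted line at 1 RPKM. Acss1 drops from 25.09 and 34.33 RPKM to 3.85, Acsl5 ends at 12.38, and Cpt1b, Cpt1c, Ppara and Ppargc1a lie under the dotted line.

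Differences are log2((RPKM + 1)/(RPKM + 1)), a scale that understates the change of low genes. A gene counts as higher or lower when this difference is at least 1 in size, and the higher library of the pair reaches 1 RPKM. For reactivating against dormant, 0 of the 35 members with at least 1 RPKM were higher and 0 lower by this rule, where 2.68% of all 12126 genes were higher and 3.07% lower. Among protein-coding genes these shares were 0.683% and 0.291%, so that few protein-coding genes had moved that far at 6 h. Protein-coding genes were 68 of the 325 higher genes and 29 of the 372 lower ones. The intervals did not overlap for 9 members, all of them higher at 6 h, which is 25.7% of the members beside 19.1% of all genes and 20.2% of protein-coding genes. None was lower by that measure, where the share was 10.7% of all genes and 9.91% of protein-coding genes. The median member difference was 0.147, beside 0.0603 over all genes.

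For reactivated against dormant, 1 member was higher (2.86% of 35) and 6 were lower (17.1%). Over all 12037 genes, 5.27% were higher and 7.66% lower, and over protein-coding genes 3.63% and 5.53%. The higher member was Acsl5, and the lower ones were Acss1, Slc22a5, Cpt1a, Crot, Acsl1 and Acadl. Without the size rule, intervals did not overlap for 20 lower members (57.1%) and 3 higher ones (8.57%), where 31.6% of all genes were lower and 24.5% higher in this way, or 34.0% and 26.0% of protein-coding genes. The median member difference was -0.346, beside -0.075 over all genes, and 23 of 35 members (65.7%) were below 0, as were 54.8% of protein-coding genes. The whole-table split of 634 higher and 922 lower genes became 809 and 749 with upper-quartile scaling, which moved the median over all genes from -0.075 to 0.025. With that scaling the member median was -0.234, with 5 members lower and 1 higher.

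For reactivated against reactivating, 0 of 35 members were higher and 7 lower, where 3.82% of all 12065 genes were higher and 7.63% lower, or 2.44% and 6.6% of protein-coding genes. The 7 were Acss1, Slc22a5, Cpt1a, Crot, Acsl1, Acadm and Acox3. Intervals did not overlap for 22 lower members (62.9%) and 3 higher ones, beside 34.5% and 21.1% of all genes and 38.0% and 22.3% of protein-coding genes. The median was -0.531 for members and -0.126 over all genes. Below 0 lay 27 of 35 members (77.1%), as did 59.8% of protein-coding genes. With upper-quartile scaling the whole-table split of 461 higher and 920 lower became 700 and 645, and 5 members were lower. Both comparisons at 12 h use the same reactivated library, so the second is no repeat of the first.

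**Figure D2:**
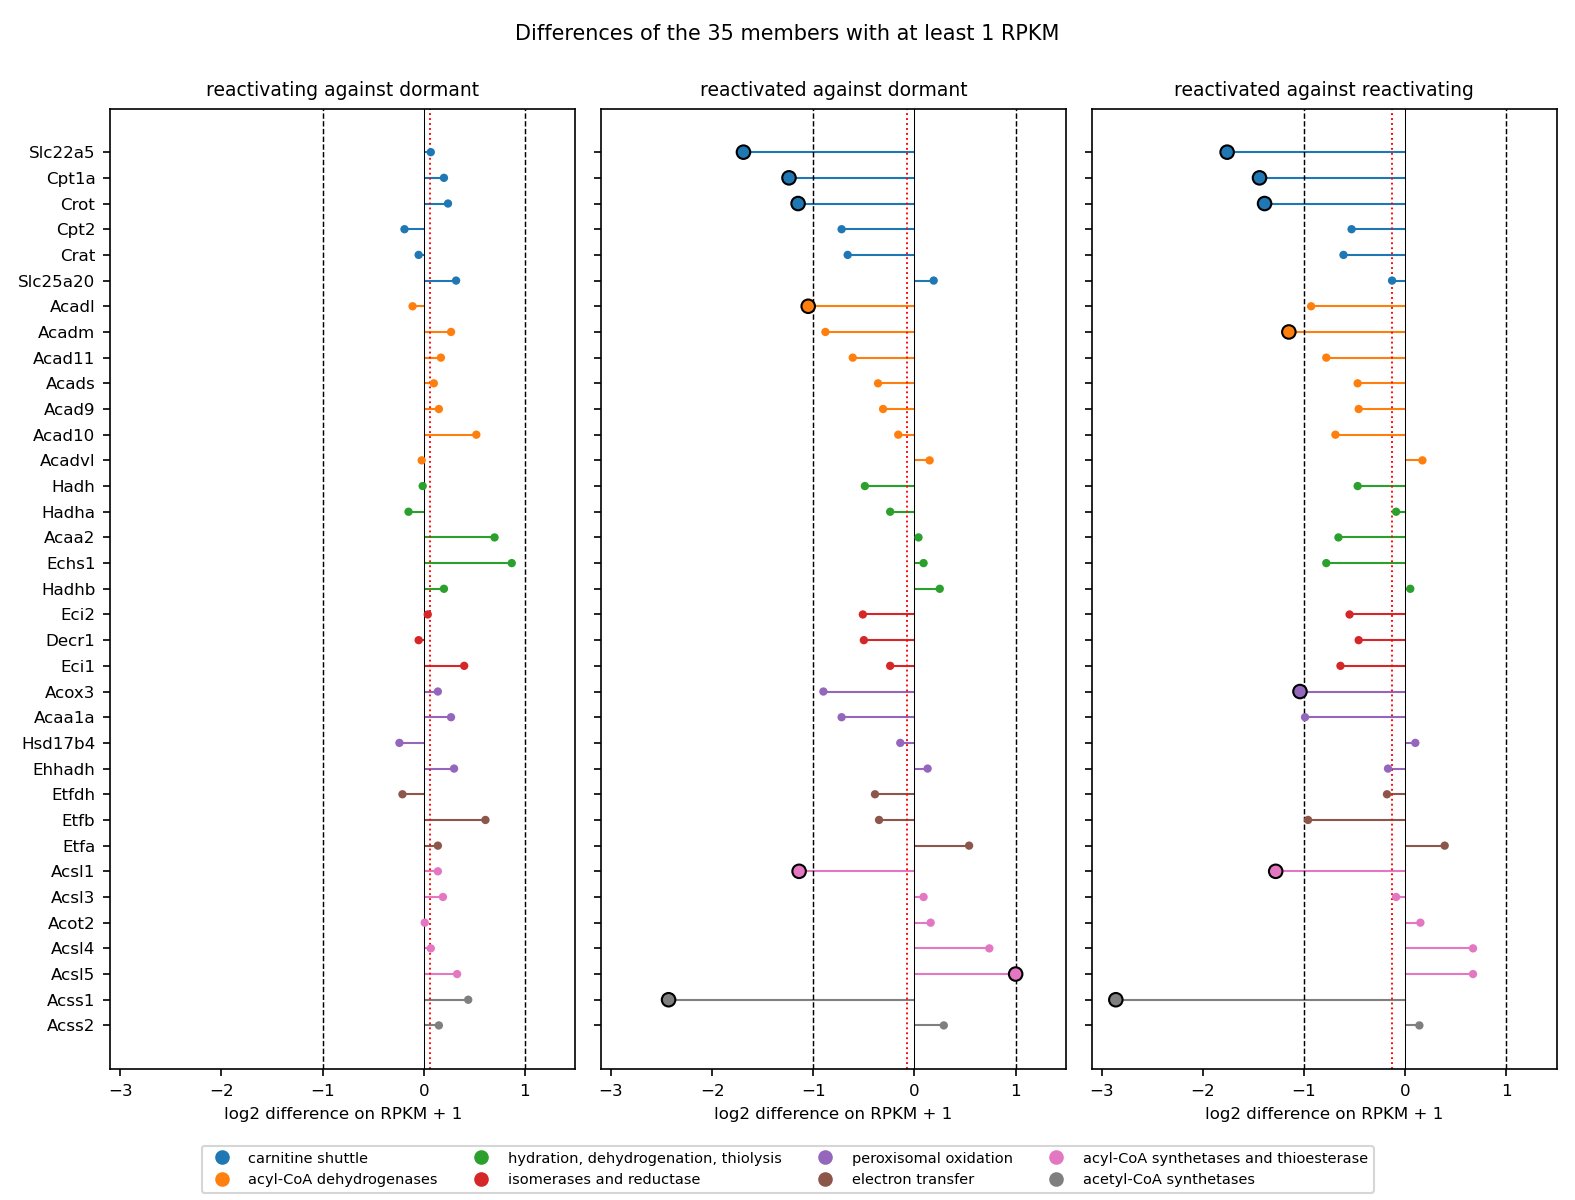
Log2 difference on RPKM + 1 of the 35 genes with at least 1 RPKM, in the 3 comparisons, coloured by role. Dashed lines mark differences of 1 in size, the red dotted line is the median of all genes, and ringed points pass the size rule: 0 at 6 h against dormant, 7 in reactivated against dormant and 7 in reactivated against reactivating.

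The carnitine shuttle held 3 of the 6 lower genes at 12 h, and its 6 members with at least 1 RPKM had a median difference of -0.935 from dormant. Slc22a5 encodes the plasma membrane transporter that takes up carnitine (ENSMUSG00000018900, GRCm38 chromosome 11, 53864542 to 53891660, minus strand). Its level was 34.36 RPKM (32.65 to 36.14) in dormant blastocysts, 36.2 (34.52 to 37.93) at 6 h and 9.97 (9.18 to 10.81) at 12 h. The first pair of states overlapped, and the reactivated level lay below both, 3.45 times lower than dormant (exact binomial interval 3.13 to 3.8, log2 difference -1.69). Of the 50-base stretches of its longest protein-coding M21 transcript, 27.1% occur in another gene, nearly all in Slc22a21. Slc22a21 was itself at 3.36, 2.64 and 2.25 RPKM, so that Slc22a5 reads could be split between the copies.

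Cpt1a encodes the liver-type enzyme that commits long-chain fatty acids to mitochondria, the rate-limiting step that malonyl-CoA blocks (ENSMUSG00000024900, chromosome 19, 3322334 to 3385733, plus strand). It stood at 10.81 RPKM (9.782 to 11.92, 403 reads) in dormant blastocysts, 12.58 (11.52 to 13.71, 521 reads) at 6 h and 3.99 (3.457 to 4.584, 200 reads) at 12 h. The reactivated library was below both others, 2.71 times lower than dormant (2.28 to 3.23) and 3.15 times lower than reactivating (2.67 to 3.73). Of the summed level of the CPT1 genes, Cpt1a made up 94.8%, 93.7% and 89.1%. The muscle-type Cpt1b had 8, 18 and 9 reads, and 93.0% of its transcript is shared with the overlapping gene Gm44502. The brain-type Cpt1c had 15, 19 and 17 reads, so neither allowed a statement about direction.

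Crot, which links medium-chain products of peroxisomes to carnitine (ENSMUSG00000003623, chromosome 5, 8966033 to 8997324, minus strand), was at 31.37 RPKM (29.65 to 33.15), 37.14 (35.37 to 38.98) and 13.6 (12.63 to 14.63). It was the one shuttle gene whose interval at 6 h lay above dormant, and at 12 h it was 2.31 times lower than dormant (2.1 to 2.53). Cpt2, which returns the acyl group to coenzyme A in the matrix, was at 9.04, 7.8 and 5.09 RPKM, a difference of -0.72 from dormant. Crat, which moves acetyl and other short acyl groups between carnitine and coenzyme A, was at 6.52, 6.26 and 3.76 RPKM (-0.66). Neither passed the size rule, and the reactivated interval of each lay below its dormant one. Slc25a20, the carrier that exchanges acylcarnitine for carnitine across the inner membrane, was at 3.71, 4.86 and 4.36 RPKM with overlapping intervals. The ratio of Cpt1a to Cpt2 in RPKM was 1.2, 1.61 and 0.784.

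The acyl-CoA dehydrogenases, which take the first electrons from each round, differed from each other, but not in order of chain length. Acadl, for long chains (ENSMUSG00000026003, chromosome 1, 66830839 to 66863277, minus strand), was at 35.86 RPKM (33.63 to 38.21), 33.05 (31.02 to 35.19) and 16.85 (15.54 to 18.25). It was 2.13 times lower in reactivated than in dormant blastocysts (1.92 to 2.36). Its log2 difference of -1.05 was close to the rule's limit and became -0.94 with upper-quartile and -0.96 with median-ratio scaling, which ended the call. Acadm, for medium chains (ENSMUSG00000062908, chromosome 3, 153922357 to 153944632, minus strand), was at 37.91 RPKM (35.58 to 40.36), 45.89 (43.45 to 48.43) and 20.11 (18.65 to 21.65). At 6 h its interval lay above the dormant one, and at 12 h it stood 2.28 times lower than at 6 h (2.08 to 2.5, log2 difference -1.15), but with upper-quartile scaling the difference was -0.98 and the call ended. Against dormant its difference of -0.88 did not pass.

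Acads, for short chains, was at 19.67, 21.23 and 15.09 RPKM, and Acadvl, for very long chains, at 8.38, 8.25 and 9.38 RPKM. Acadvl was the single one of these 4 dehydrogenases whose intervals overlapped across all 3 states. The sum of the 4 was 101.8, 108.4 and 61.43 RPKM, and the part made up by Acadvl was 8.23%, 7.61% and 15.3%. Acadl made up 35.2%, 30.5% and 27.4% of that sum and Acadm 37.2%, 42.3% and 32.7%. Acad9, which also helps to assemble respiratory complex I, was at 14.43, 16.09 and 11.46 RPKM, and Acad10, a relative of less settled function, at 1.87, 3.12 and 1.56 RPKM. Of Acadvl's transcript 24.0% overlaps Dvl2 on the opposite strand, and 20.4% of Acad10's is shared with Acad12.

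The row with the symbol Acad11 was at 6.01, 6.88 and 3.6 RPKM, but it cannot be read as that gene alone. Its Ensembl ID is not that of Acad11 in M21, and it spans 150880 bases where the M21 gene, from 104063377 to 104127725 on chromosome 9, spans 64349. The row is counted among the 39, and without it the member medians were 0.146 at 6 h, -0.327 at 12 h against dormant and -0.503 at 12 h against 6 h, with the same numbers of members called.

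Of the genes for hydration, the second dehydrogenation and thiolysis none passed the rule, and their median difference at 12 h from dormant was 0.0371. Hadh, the dehydrogenase for short and medium chains, was the highest of all members, at 103.96 RPKM (99.93 to 108.1), 103.17 (99.35 to 107.1) and 73.96 (71.02 to 76.98). Its dormant and reactivating levels overlapped and the reactivated one lay below them (-0.49). Echs1, the hydratase of short chains, was at 42.83 RPKM (40.07 to 45.73), 79.17 (75.59 to 82.87) and 45.7 (43.24 to 48.27). Its ratio of 1.85 at 6 h (1.71 to 2.0, log2 difference 0.87) was the greatest at that time among the 35 members, and its dormant and reactivated intervals overlapped. Acaa2, the mitochondrial thiolase that releases acetyl-CoA, showed the same order at 22.05, 36.42 and 22.65 RPKM, with a ratio of 1.65 at 6 h (1.47 to 1.85).

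Hadha and Hadhb encode the alpha and beta subunits of the trifunctional protein, which carries out these steps on long chains. Hadha was at 34.9, 31.37 and 29.33 RPKM and Hadhb at 1.31, 1.65 and 1.75 RPKM. Their RefSeq start sites face away from each other on chromosome 5, at 30154980 and 30155253, 273 bases apart. The ratio of Hadha to Hadhb in RPKM was 26.6, 19.0 and 16.8. Hadhb's level is uncertain, since 62.4% of its 50-base stretches occur in other genes, chiefly the pseudogene Gm13910, which had 3.45, 2.91 and 3.73 RPKM. Hadhb held 152, 131 and 162 intron reads beside 38, 53 and 68 exon reads.

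The auxiliary enzymes for unsaturated chains, Eci1, Eci2 and Decr1, had a median difference of -0.504 at 12 h from dormant, and none passed. Decr1, the dienoyl-CoA reductase, was at 13.78, 13.3 and 9.42 RPKM. The isomerase Eci1 was at 7.35, 9.98 and 6.05 RPKM and the isomerase Eci2 at 7.25, 7.49 and 4.8 RPKM. The reactivated interval lay below the dormant one for Decr1 and Eci2 and overlapped it for Eci1.

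Among the peroxisomal genes, Acox3, an oxidase of branched chains (ENSMUSG00000029098, chromosome 5, 35583040 to 35615352, plus strand), was at 8.32 RPKM (7.683 to 8.99), 9.26 (8.627 to 9.933) and 3.98 (3.602 to 4.383). At 12 h it was 2.33 times lower than at 6 h (2.06 to 2.63, log2 difference -1.04), a call that ended with upper-quartile scaling (-0.89) and median-ratio scaling (-0.91). Against dormant its difference was -0.9, short of the rule, and -1.05 with a pseudocount of 0.1. The thiolase Acaa1a was at 9.02, 11.08 and 5.09 RPKM, and its difference of -0.99 at 12 h from 6 h just missed the rule. Of its 50-base stretches 35.1% occur in other genes, chiefly Acaa1b, which was at 0.31, 0.92 and 0.17 RPKM. Hsd17b4, a bifunctional enzyme of very long and branched chains, was at 7.78, 6.45 and 6.96 RPKM, and Ehhadh, the other bifunctional enzyme, at 1.07, 1.54 and 1.26 RPKM. The reactivated and dormant intervals of both overlapped.

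The subunits of electron transfer flavoprotein differed in their order over the states. Etfa was at 19.32 RPKM (17.38 to 21.41), 21.46 (19.52 to 23.54) and 28.46 (26.42 to 30.62), and its reactivated level lay above both others. Etfb was at 45.16 RPKM (41.38 to 49.19), 69.62 (65.15 to 74.32) and 35.31 (32.43 to 38.38), highest at 6 h and lowest at 12 h. The ratio of Etfb to Etfa was 2.34, 3.24 and 1.24, and no difference of either gene passed the rule. Of Etfb's transcript 67.3% is shared with the overlapping gene Gm45233. Etfdh, the membrane enzyme that passes their electrons to ubiquinone, was at 9.58, 8.17 and 7.1 RPKM.

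The long-chain acyl-CoA synthetases, which activate fatty acids before any use, differed in make-up between dormant and reactivated blastocysts at a nearly equal sum. Acsl1 (ENSMUSG00000018796, chromosome 8, 46471037 to 46536051, plus strand) was at 11.93 RPKM (11.06 to 12.84, 700 reads), 13.25 (12.38 to 14.16, 864 reads) and 4.85 (4.38 to 5.365, 383 reads). It was 2.46 times lower in reactivated than in dormant blastocysts (2.17 to 2.79). Acsl5 (ENSMUSG00000024981, chromosome 19, 55251938 to 55297720, plus strand) was at 5.69 RPKM (4.939 to 6.517, 207 reads), 7.39 (6.579 to 8.281, 299 reads) and 12.38 (11.42 to 13.41, 606 reads). Its levels did not overlap between any pair of states, and at 12 h it was 2.18 times higher than dormant (1.86 to 2.56), a log2 difference of 1.0 that lies at the rule's limit. Over the 6 other settings tried this difference ranged from 1.0 to 1.11 and the call held.

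Acsl4, which favours arachidonic acid, was at 3.7 RPKM (3.274 to 4.157), 3.95 (3.534 to 4.398) and 6.86 (6.361 to 7.392), above both other states at 12 h but at 0.74 short of the rule. Acsl3, a synthetase of the endoplasmic reticulum and lipid droplets, was at 13.2, 15.15 and 14.13 RPKM, with dormant and reactivated intervals that overlapped. With Acsl6, which is not a member but completes the family and was at 9.45, 11.2 and 5.74 RPKM, the family summed to 43.97, 50.94 and 43.96 RPKM. Within that sum, Acsl1 made up 27.1%, 26.0% and 11.0% and Acsl5 12.9%, 14.5% and 28.2%. The ratio of Acsl1 to Acsl5 was 2.1 in dormant and 0.392 in reactivated blastocysts. Acot2, a mitochondrial thioesterase that undoes the activation, was at 2.72, 2.74 and 3.15 RPKM with overlapping intervals. Its level is uncertain, since it had 0 reads across exon junctions in each library. Of its 50-base stretches 27.7% occur in other genes, chiefly Acot1, which was at 0.72, 0.98 and 2.39 RPKM.

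On the RPKM + 1 scale, the greatest difference of all 39 genes was in Acss1 (ENSMUSG00000027452, chromosome 2, 150618105 to 150668500, minus strand). Acss1 encodes the mitochondrial enzyme that makes acetyl-CoA from acetate. Its level was 25.09 RPKM (23.73 to 26.51, 1275 reads) in dormant blastocysts, 34.33 (32.81 to 35.89, 1938 reads) at 6 h and 3.85 (3.398 to 4.344, 263 reads) at 12 h. No pair of states overlapped: the level at 6 h was 1.37 times the dormant one (1.27 to 1.47), and at 12 h it was 6.52 times lower than dormant (5.7 to 7.47) and 8.92 times lower than at 6 h (7.84 to 10.2). Reads across exon junctions of Acss1 numbered 231, 299 and 30. Among genes with at least 1 RPKM its rank was at percentile 85.5, 88.9 and 32.3. Acss2, which makes acetyl-CoA in the cytosol and nucleus, was at 1.93 RPKM (1.574 to 2.348), 2.26 (1.886 to 2.677) and 2.58 (2.214 to 2.979), with overlapping intervals and a ratio of 1.33 at 12 h to dormant (1.04 to 1.72). Acss1 made up 92.9%, 93.8% and 59.9% of the sum of both genes, and the ratio of Acss1 to Acss2 was 13.0, 15.2 and 1.49.

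**Figure D3:**
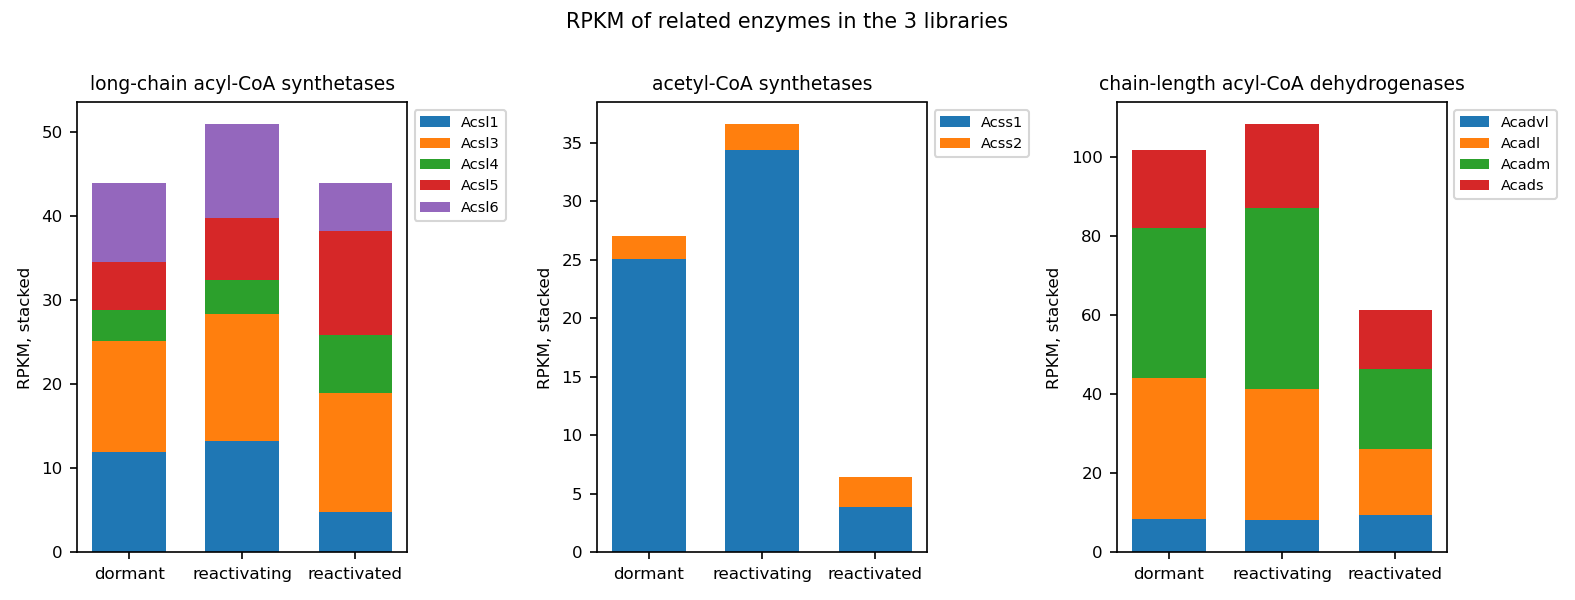
Stacked RPKM in the dormant, reactivating and reactivated libraries for the long-chain acyl-CoA synthetases, the acetyl-CoA synthetases and the 4 chain-length acyl-CoA dehydrogenases, on linear axes that start at 0. The synthetase bars end at 43.97, 50.94 and 43.96 RPKM while the Acsl1 part shrinks and the Acsl5 part grows, and the acetyl-CoA synthetase bar at 12 h ends at 6.43 RPKM, of which Acss1 is 3.85.

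The regulators Ppara, a nuclear receptor that fatty acids activate and that drives oxidation genes in liver, and Ppargc1a, a coactivator of mitochondrial genes, were near the limit of detection. Ppara had 2, 23 and 5 exon reads (0.04, 0.41 and 0.07 RPKM), with the interval at 6 h, 0.2627 to 0.6218 RPKM, above those of the other states. With 2 reads in the dormant library its ratio at 6 h was 10.4 with a counting interval from 2.56 to 90.6. Ppargc1a had 4 exon reads in each library.

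Intron reads are separate reads in the same libraries, and they were counted in the members as a further readout. They can come from unspliced RNA or from other genes that overlap the introns, and their source was not tested. At 12 h against dormant, the intron ratio (per library total) had a median log2 value of -0.451 over the 36 members with at least 20 intron reads in a library, and 28 of them (77.8%) were below 0. Over 11740 protein-coding genes the median was -0.0556, with 53.6% below 0. At 6 h the medians were -0.0633 for 37 members and 0.0254 for protein-coding genes, and at 12 h against 6 h they were -0.546 and -0.0886.

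Among the 6 lower members the intron reads of Acss1 numbered 140, 183 and 65, an intron ratio of 0.345 at 12 h to dormant (0.253 to 0.467). Slc22a5 had 1031, 1099 and 578 intron reads, with a ratio of 0.417 (0.376 to 0.462). The intron ratio was 0.36 for Crot, 0.43 for Acadl and 0.503 for Acsl1. All 5 intervals lay below 1, and so did that of Cpt1a, at 142, 151 and 132 reads, where the ratio was 0.691 (0.541 to 0.883). For Acss1, Cpt1a and Slc22a5 the exon ratio, at 0.153, 0.369 and 0.29, lay further below 1 than the intron ratio, and their intervals did not overlap. For Crot, Acadl and Acsl1 the exon and intron intervals overlapped. Acsl5 and Acsl4, whose exon ratios at 12 h were 2.18 and 1.86, had intron ratios of 1.12 (0.852 to 1.49) and 0.686 (0.553 to 0.852). The intron ratio was 2.66 for Acadvl (1.73 to 4.2), 1.71 for Acss2 (1.15 to 2.59) and 2.5 for Ehhadh (1.25 to 5.44). Hsd17b4 held 896, 892 and 1034 intron reads beside 291, 268 and 350 exon reads, and the pseudogene Cd63-ps lies in its introns on the same strand.

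**Figure D4:**
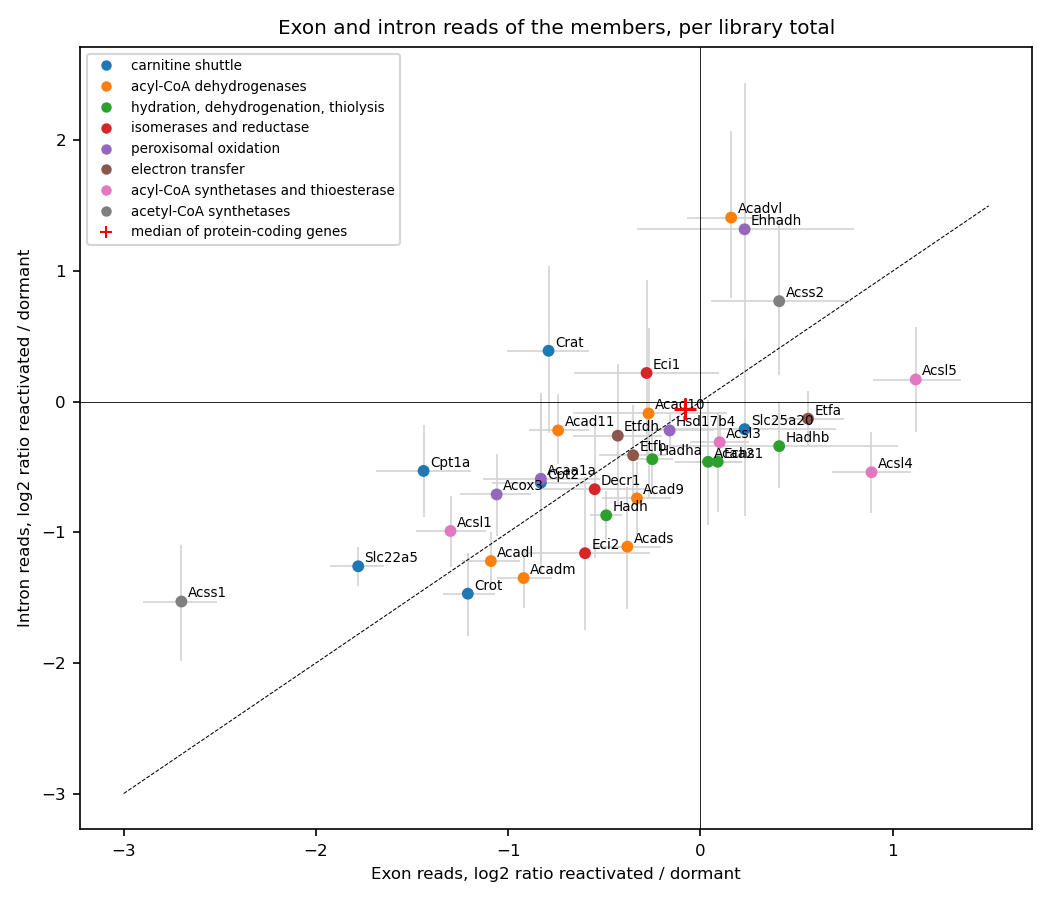
Log2 ratio of intron reads (vertical) against log2 ratio of exon reads (horizontal), reactivated to dormant, per library total, for members with at least 1 RPKM and at least 20 intron reads, coloured by role, with exact 95% binomial intervals in grey. The dashed line marks equal ratios and the red cross the medians of protein-coding genes (-0.0795 and -0.0556). Acss1 lies far to the left and Acsl5 and Acsl4 to the right of the dashed line.

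The motif search covered 34 RefSeq windows of 33 members, none on chromosome 18, since Acsl1 has 2, beside 32851 windows of all genes. It searched both strands of the 250 bases for AGGTCA (the nuclear receptor half-site), TCAAGGTCA (bound by the ERR receptors), the PPAR direct repeat (a pair of AGGTCA with 1 base between them), CACGTG (an E-box), TGTTTAC (the forkhead core), the NRF1 palindrome (GCGCA followed directly by TGCGC) and CCAAT. The half-site is contained in the ERR and PPAR motifs. AGGTCA was found in windows of 5 members, Cpt1a, Acadm, Acadvl, Echs1 and Cpt1c, which is 14.7% of member windows beside 14% of all. CCAAT was in 47.1% of member windows and 33.8% of all, and the NRF1 palindrome in the windows of Etfdh and Ppara (5.88%, beside 0.782% of all). The ERR, PPAR, E-box and forkhead motifs were in 0 member windows, where 0.387%, 0.0335%, 6.02% and 3.17% of all windows held them.

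Other genes around the pathway were followed in 6 lists of 100 genes. In reactivated against dormant, 5 of 89 measured genes were higher and 9 lower, with a median of -0.232. At 6 h against dormant 1 was higher and 0 lower of 89, and at 12 h against 6 h 2 were higher and 7 lower of 90. By the same rule, 5.27% of all genes were higher and 7.66% lower in reactivated against dormant. These shares were 2.68% and 3.07% at 6 h against dormant, and 3.82% and 7.63% at 12 h against 6 h.

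Of 17 measured genes of other beta-oxidation enzymes, 1 was higher and 1 lower at 12 h than in dormant blastocysts (median -0.497). Acox2, a peroxisomal oxidase of branched chains and bile acid precursors, was at 6.86, 5.99 and 0.83 RPKM. Acat2, a cytosolic thiolase that joins acetyl-CoA for sterol synthesis, was at 4.08, 5.19 and 11.05 RPKM. Mlycd, which breaks down malonyl-CoA, was at 4.99, 6.09 and 2.26 RPKM and lower at 12 h than at 6 h.

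Of 13 measured genes of fatty acid uptake, binding and lipid droplet release, 2 were higher and 1 lower (median -0.344). Dbi, the acyl-CoA binding protein, was at 11.76, 20.92 and 38.31 RPKM. Pnpla2, the lipase that starts the breakdown of stored triglyceride, was at 15.39, 12.0 and 6.1 RPKM. Fabp5, a fatty acid binding protein, had 5, 38 and 28 reads (0.54, 3.69 and 2.25 RPKM) and was the one list gene past the rule at 6 h. It was named after its values were seen.

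Of 19 measured genes of peroxisome import and assembly, 0 were higher and 3 lower, and the median of -0.0138 was near that of all genes. Pex6, an ATPase of protein import, was at 8.13, 6.57 and 3.32 RPKM, and Abcd4, a carrier that acts in lysosomal cobalamin export, at 5.97, 4.49 and 2.36 RPKM.

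Of 18 measured genes of other acetyl-CoA sources and ketone use, 2 were higher and 1 lower, with a median of 0.568, the one list median above 0. Pdk1, a kinase that switches off pyruvate dehydrogenase, was at 2.19, 2.52 and 6.42 RPKM, and Acot7, a cytosolic thioesterase, at 1.53, 1.79 and 6.34 RPKM. Pdk2, another of these kinases, was at 3.56, 1.7 and 0.93 RPKM. Oxct1, which activates ketone bodies, was at 32, 38.2 and 17.22 RPKM and lower at 12 h than at 6 h. Acly, which makes cytosolic acetyl-CoA from citrate, was at 41.72, 42.22 and 72.34 RPKM, a difference of 0.78 that did not pass. Pdk2 and Acly were named after their values were seen.

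Of 7 measured genes of malonyl-CoA synthesis and AMPK, none was higher or lower in any comparison (median -0.237 at 12 h from dormant). The list joins genes of both kinds, so its median has no single meaning for CPT1. Of 15 measured transcription factors of lipid oxidation, 0 were higher and 3 lower (median -0.663). Tfeb, a regulator of lysosomes and lipid breakdown, was at 31.04, 29.16 and 7.74 RPKM. Foxo3, a forkhead factor of fasting and quiescence, was at 16.18, 16.12 and 4.73 RPKM, and Rxrb, a partner of the PPAR receptors, at 19.19, 17.49 and 8.66 RPKM. Esrrb, a receptor of the ERR family known for its role in pluripotent cells and trophoblast, was at 15.58, 17.09 and 7.7 RPKM and lower at 12 h than at 6 h. It was named after its values were seen.

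**Figure D5:**
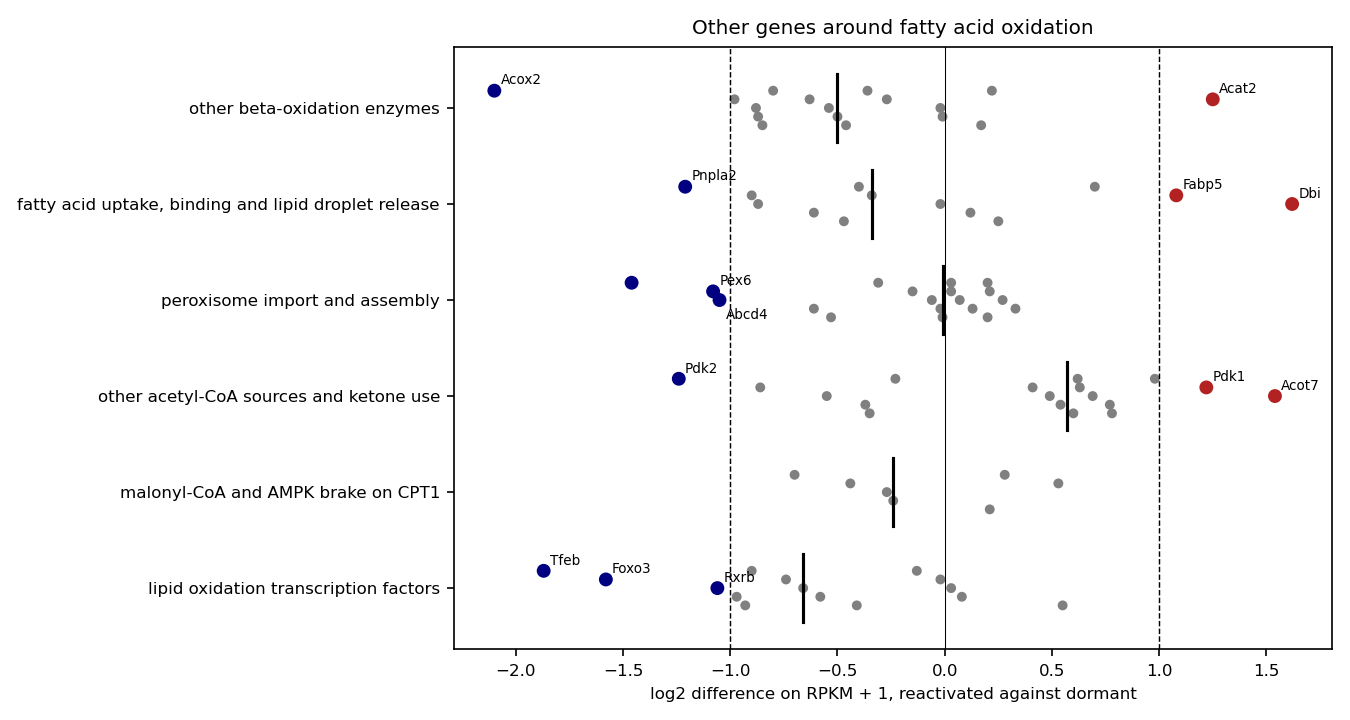
Log2 difference on RPKM + 1, reactivated against dormant, of the 89 measured genes in the 6 lists around the pathway, 1 point per gene, with list medians as black bars and dashed lines at differences of 1 in size. Red points are the 5 higher genes and blue points the 9 lower ones, and the list of other acetyl-CoA sources has the one median to the right of 0.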

How the data were processed

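One table per library was used, with 3 libraries in all. Per the labels' protocols, ribosomal RNA was removed from total RNA and 50 bp single-end reads came from a SOLiD instrument. The deposited counts are reads per gene, split per the file headers into genomic, junction, exon, intron and opposite-strand reads. The deposited RPKM is the authors' own, and with totals of 14118723, 15687239 and 18982195 reads it followed from exon reads and exon length within 2% or 0.011 RPKM for every member. The genome build is GRCm38 per the submitters' processing notes. For alignment, counting and gene models, tools and releases were not given in the sources used here.

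Differences, the size rule and its share over all genes were computed on the whole table with Python 3.11.15, pandas 2.3.3 and SciPy 1.17.1, with exact Poisson intervals on reads and exact binomial intervals on ratios of reads. Reads were not tagged per molecule and can repeat a molecule, so intervals cover counting error only. Rows were matched to GENCODE M21 by Ensembl ID, which held 84.7% of the IDs, and coordinates are from M21. Shared sequence is the share of 50-base stretches of a gene's longest protein-coding M21 transcript found in transcripts of another gene, on either strand. Promoter windows came from RefSeq (GRCm38.p6), and 33 of 39 members entered the search. Not matched were Cpt1b, Crat, Decr1 and Acad9. Member windows on chromosome 18 were left out, so Acaa2 and Hsd17b4 were not searched. The windows of all genes had no such exclusion.

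Members past the size rule, and the 2 highest of each role, have values in all libraries. Of the other lists, genes past the rule with at least 5 RPKM are named, at most 3 a list. One list gene past the rule is counted and not reported here. The members, lists and motifs were chosen with earlier results of these data known. Alternatives were a pseudocount of 0.1, upper-quartile scaling, median-ratio scaling, CPM with at least 20 reads, a minimum of 5 RPKM, no minimum and, added after seeing the data, the set without the Acad11 row.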

Additional observations from a re-analysis of the deposited data

Results flagged for a closer look

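Reads on the strand opposite to a gene are in the tables but enter no RPKM. In 5 members they numbered at least 20 and exceeded the gene's own exon reads in a library. The Acad11 row held 885 opposite-strand reads in the dormant library, 1174 at 6 h and 1343 at 12 h, beside 770, 979 and 621 exon reads. Acss2 held 297, 370 and 309 opposite-strand reads beside 101, 131 and 181 exon reads, and Gss, which overlaps it on the opposite strand, held 272, 400 and 286 exon reads. The low members Cpt1c, Ppara and Ppargc1a had their highest raw opposite-strand counts in the reactivated library, with 36, 39 and 41 reads. That library also held the most opposite-strand reads over all genes (515723, 690512 and 865985), and the counts were not scaled to this. The source of these reads was not tested.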

How the results depend on the processing

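No member difference past the size rule changed sign in the 6 alternatives set out at the start. The number of members higher at 6 h against dormant was 0 and became 1 with CPM, which adds Ppara. The number lower at 12 h against 6 h was 7 and became 11 with CPM, by adding Acadl, Acaa1a, Etfb and Ppara. The cause was not tested. The other 61 counts and medians over the members, those without the Acad11 row included, stayed within 1.5 times the reported count or within the typical counting interval of a member around the reported median. Acsl5, Acsl1, Acss1, Cpt1a, Crot and Slc22a5 kept their call at 12 h against dormant in 6 of 6 alternatives and Acadl in 4. Against 6 h, Acadm kept its call in 5 and Acox3 in 4, and Acss1, Slc22a5, Cpt1a, Crot and Acsl1 in 6. No paired analysis was possible because each state has 1 library, and for the same reason no replicate could be left out. Depth limits Cpt1b, Cpt1c, Ppara and Ppargc1a, which had at most 23 exon reads in any library.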
